A study of Mus musculus with 6 samples.

Results

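AP-1 is a family of transcription factors that bind DNA as pairs of leucine zipper proteins. The 8 genes described here are the Fos family (Fos, Fosb, Fosl1 and Fosl2), the Jun family (Jun, Junb and Jund) and Atf3, chosen by gene symbol out of 54115 mouse genes with a quantified transcript, of which 17152 were tested between genotypes. All 8 passed the read filter of 5 or more reads in 2 or more libraries, although Fosl1 passed it with only 3 to 11 reads per library. RNA-sequencing was performed on freshly isolated satellite cells, the muscle stem cells that carry the transcription factor PAX7, from 3 Pax7WT and 3 Pax7KR samples of strain C57BL/6J. According to the methods of the study, Pax7KR mice carry an arginine in place of 1 acetylated lysine of PAX7, introduced with Cas9 in zygotes, and were F2 homozygotes compared with WT littermates at 6 to 8 weeks of age. Uninjured hindlimb muscle was minced in collagenase and dispase, and the sort kept cells with α7-INTEGRIN and CD34 and without CD45, SCA-1, CD11b or CD31, of which 15 ng of RNA went into each library. The substitution was present from the zygote in every cell, the labels tie no replicate number to a litter or a sorting day, and p-values measure the spread between these samples. Since all 6 libraries come from dissociated and sorted cells, RNA present in the muscle before dissection and RNA made during isolation cannot be told apart, and in bulk RNA neither can fewer cells of a type and less RNA per cell.

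Fos proteins cannot pair with each other and bind DNA as dimers with a Jun protein, whereas Jun proteins also pair among themselves and with ATF3. Fos, Fosb, Jun, Junb and Atf3 are immediate early genes. Growth factors, stress and tissue dissociation switch them on within minutes through kinases that act on factors already bound to their promoters. Their mRNAs are removed fast, in many cases through AU-rich elements. In muscle, satellite cells are known to turn these genes on while they are being isolated.

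The promoter sequences of 5 members that are induced in this way are shown because the transcripts of all 5 were lowest in Pax7WT replicate 2. Each run holds the 120 bases before the RefSeq start site on build GRCm38.p6, 5′ to 3′ on the strand of the gene, and capitals mark a match. The letters searched were TGACG, the core of the cAMP response element, which reads CGTCA on the other strand and lies within the full element. Beside it stood the TATA box letters TATAA, the letters CCAAT of the CCAAT box, and TGACATCA, a variant AP-1 site known from Jun, which overlaps none of the others.
Fos, chr12:85473770-85473889, plus strand: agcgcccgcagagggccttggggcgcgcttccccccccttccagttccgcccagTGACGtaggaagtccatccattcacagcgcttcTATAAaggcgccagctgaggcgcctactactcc
Fosb, chr7:19310046-19310165, minus strand: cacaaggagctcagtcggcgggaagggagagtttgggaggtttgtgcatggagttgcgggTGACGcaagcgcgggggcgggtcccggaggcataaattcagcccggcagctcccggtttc
Jun, chr4:95052223-95052342, minus strand: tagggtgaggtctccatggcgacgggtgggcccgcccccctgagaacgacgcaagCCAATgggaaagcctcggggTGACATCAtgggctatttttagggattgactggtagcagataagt
Junb, chr8:84978749-84978868, minus strand: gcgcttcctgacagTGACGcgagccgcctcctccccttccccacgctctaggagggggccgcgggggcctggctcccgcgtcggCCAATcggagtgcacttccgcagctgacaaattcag
Atf3, chr1:191183334-191183453, minus strand: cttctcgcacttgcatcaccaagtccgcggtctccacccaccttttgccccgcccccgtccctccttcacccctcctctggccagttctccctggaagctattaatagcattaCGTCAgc

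In the RefSeq windows, which hold 250 bases before the start and 50 bases after it, 7 members had an entry, and Fosl1 had none. Both strands were searched for every motif. TGACG was held by Fos, Fosb, Junb and Atf3 and by 20.8% of the 32851 mouse promoters of this length, and the Jun letters TGACATCA by 3.62% of them. TATAA was held by Fos and Junb and by 24.9% of these promoters, and CCAAT by Jun, Junb and Atf3 and by 37.4%. The TATAA of Junb and the CCAAT of Atf3 lie from the start site on, outside the runs shown. The full AP-1 site TGACTCA (5.2% of all promoters), the full cAMP response element TGACGTCA (1.79%) and the CArG box bound by SRF (1.63%) were found in none of the 7 windows, which says only that these letters are not in them. A match here is a description of letters. The RefSeq start coincides with the GENCODE gene start for Fos and Jun and lies 6 and 30 bases from it for Fosb and Junb. It lies 34706 bases away for Atf3, 1210 for Jund and 671 for Fosl2, so the windows of these 3 genes are not at the GENCODE gene start.

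The libraries held 17822367 to 27908054 reads, and Pax7WT replicate 2 was the shallowest. Pax7 itself, the edited gene, stood at 1666, 1506 and 1480 CPM (reads scaled by library size with TMM factors) in Pax7WT replicates 1 to 3 and at 1410, 1460 and 1637 in Pax7KR replicates 1 to 3, which does not check the labels because a substitution of 1 residue leaves the transcript in place. The 10 satellite cell markers summed to 7879 to 8610 CPM in Pax7WT and 8351 to 8634 in Pax7KR libraries, lowest in Pax7WT replicate 2. Immune markers summed to 12.4 to 16.8 CPM with Cd3e at 0 reads, and the fibro-adipogenic markers other than Dpt to 53.0 to 75.7, while Dpt alone stood at 571 to 633. Endothelial markers summed to 66.6 to 130 CPM in Pax7WT and 82.2 to 154 in Pax7KR libraries, with 7 of 8 estimates higher in Pax7KR (median log2 fold change 0.45), and erythroid markers to 191 to 376 and 329 to 557, with 6 of 6 higher (median 0.69). The erythroid sum was 191, 211 and 376 CPM in Pax7WT replicates 1 to 3, so it was lowest in Pax7WT replicate 1. In Pax7WT replicate 2 the erythroid markers stood at a median of 0.559 of the other libraries, with 2 of the 6 lowest there. Smooth muscle and pericyte markers went the other way between genotypes, with 7 of 7 estimates lower in Pax7KR (median -0.18). They summed to 301 to 391 CPM in Pax7WT and 280 to 356 in Pax7KR libraries, and stood at a median ratio of 1.17 in Pax7WT replicate 2. Schwann, tenocyte and myofibre markers had median log2 fold changes of -0.13, -0.21 and -0.13. None of the 19 lists held a gene called between genotypes by edgeR. For the differences between libraries described next, the part of depth or of these other cells was not tested.

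Per unit of transcript length, as the authors' TPM (transcripts scaled by length and depth) summed per gene, 5 members were among the most abundant transcripts of the sorted cells. Fos, the founding member, had 6344, 3466 and 6318 TPM in Pax7WT replicates 1 to 3 and 5078, 5587 and 5192 TPM in Pax7KR replicates 1 to 3, and ranked between position 11 and 32 of all genes in a library. Junb, Jun, Fosb and Jund followed with mean TPM of 2769, 2645, 1765 and 1642. Atf3 had a mean of 120.6 TPM, Fosl2 (FRA-2) of 70.7 and Fosl1 (FRA-1) of 0.323. The 8 members together took 1.71%, 0.939% and 1.62% of all TPM in Pax7WT replicates 1 to 3 and 1.39%, 1.52% and 1.43% in Pax7KR replicates 1 to 3, so the sum was lowest and highest in Pax7WT libraries.

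**Figure D1:**
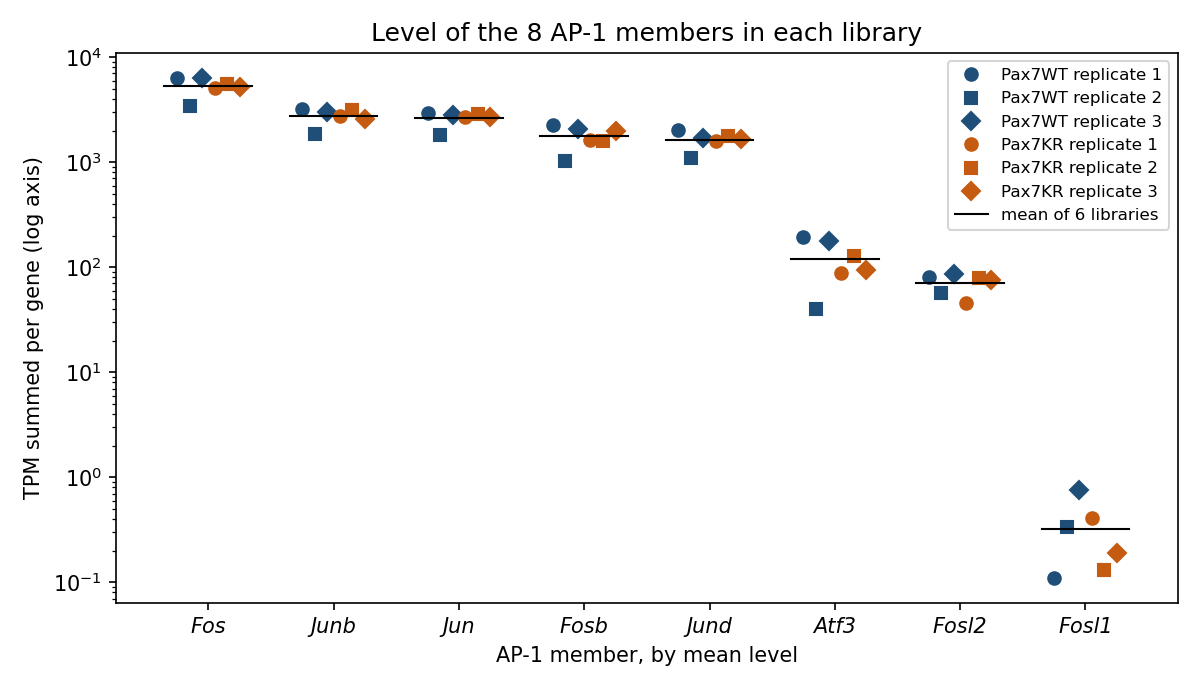
TPM summed per gene (log axis) of each AP-1 member in each of the 6 libraries, with the mean as a line. Fos, Junb, Jun, Fosb and Jund lie at 1038 TPM or more in every library and Fosl1 below 1 TPM, while Pax7WT replicate 2 is lowest for 6 of the 8 members.

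The order of levels was compared between neighbours with an exact two-sided sign-flip permutation test over the 6 libraries, whose smallest p is 0.03125, with adjustment over 7 pairs. The pairs and their direction were taken from the mean TPM of the same 6 libraries. The p-values therefore describe how steady that order was and are no independent test of it. Fos exceeded Junb 1.92-fold, Jun exceeded Fosb 1.53-fold, Jund exceeded Atf3 15.1-fold and Fosl2 exceeded Fosl1 256-fold, each in 6 of 6 libraries (permutation p = 0.03125, adjusted p = 0.0547). Junb and Jun could not be ordered beyond their spread (ratio 1.04, higher in 5 of 6 libraries, permutation p = 0.125, adjusted p = 0.146). The same held for Fosb and Jund (ratio 1.06, 4 of 6 libraries, permutation p = 0.281) and for Atf3 and Fosl2 (ratio 1.55, 5 of 6 libraries, permutation p = 0.0938, adjusted p = 0.131). Summed TPM of the Fos family stood to that of the Jun family as 1.07, 0.952 and 1.12 in Pax7WT and 0.951, 0.930 and 1.05 in Pax7KR libraries. The means of this ratio, 1.05 ± 0.0869 and 0.976 ± 0.0614 (SD, n = 3 each), did not differ beyond the spread (exact permutation test, two-sided, p = 0.2, where 3 against 3 allows no p below 0.1).

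Whether the PAX7 substitution changes AP-1 transcripts in isolated cells was asked gene by gene with edgeR's quasi-likelihood test, adjusted over all 17152 genes. None of the 8 members was called at an adjusted p under 0.1, nor was any other gene (0% of genes called), and none of the 8 had an unadjusted p under 0.05, against 4.68% of all genes (2.26% higher and 2.43% lower in Pax7KR). DESeq2 and limma-voom also called 0 members, with 0 members under an unadjusted p of 0.05 in each, where DESeq2 had 3.98% of all genes. DESeq2 called 30 other genes (0.175%). The groups overlapped for all 8 members, whereas they did not overlap for 10.3% of all genes. By the sign of the log2 fold change, 3 members stood higher and 5 lower in Pax7KR, and their median was -0.10, beside a median of -0.0038 over all genes.

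Fos had 6729, 3483 and 6606 CPM in Pax7WT replicates 1 to 3 and 4969, 5577 and 5338 CPM in Pax7KR replicates 1 to 3. The 3 Pax7KR values lay between the lowest and the highest Pax7WT value. Mean CPM was 5606 ± 1840 in Pax7WT and 5295 ± 307 in Pax7KR (SD, n = 3). The fitted difference on the log2 scale was -0.08 (SE 0.28, 95% interval -0.79 to 0.63, edgeR adjusted p = 0.998).

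Fosb, an immediate early relative of Fos with a long and a truncated protein, had 4786, 2225 and 4312 CPM in Pax7WT replicates 1 to 3 and 3251, 3079 and 4102 CPM in Pax7KR replicates 1 to 3. Again the Pax7WT libraries held both extremes. The log2 fold change was -0.12 (SE 0.34, 95% interval -1.02 to 0.79, edgeR adjusted p = 0.998).

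Fosl2, which encodes FRA-2 and is induced later than Fos in most cells, had 275, 209 and 305 CPM in Pax7WT replicates 1 to 3 and 156, 271 and 261 CPM in Pax7KR replicates 1 to 3. Its lowest library was Pax7KR replicate 1 and not Pax7WT replicate 2, which set it apart from Fos and Fosb, and the groups overlapped. The log2 fold change was -0.20 (SE 0.28, 95% interval -0.96 to 0.56). Fosl1, which encodes FRA-1, was close to undetected, with 3, 6 and 11 reads in Pax7WT replicates 1 to 3 and 9, 3 and 4 reads in Pax7KR replicates 1 to 3. At this depth its log2 fold change of -0.44 (SE 0.87) had a 95% interval from -2.32 to 1.44.

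Jun, the c-Jun subunit that partners Fos, had 5106, 3226 and 4928 CPM in Pax7WT replicates 1 to 3 and 4502, 4787 and 4590 CPM in Pax7KR replicates 1 to 3. The Pax7KR libraries lay within 1 narrow band and the Pax7WT libraries on both sides of it. Mean CPM was 4420 ± 1038 in Pax7WT and 4626 ± 146 in Pax7KR (SD, n = 3). Its log2 fold change, 0.07 with an SE of 0.16, had the narrowest 95% interval of the 8 members, -0.32 to 0.45 (edgeR adjusted p = 0.998).

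Junb, a Jun protein with weaker transactivation that can oppose c-Jun, had 2789, 1671 and 2674 CPM in Pax7WT replicates 1 to 3 and 2358, 2701 and 2254 CPM in Pax7KR replicates 1 to 3. Jund, the Jun protein made in resting cells of many tissues, had 1381, 785 and 1180 CPM and 1087, 1217 and 1165 CPM in the same order. In both genes Pax7WT replicate 2 stood below all the others and the groups overlapped. The log2 fold changes were 0.04 (SE 0.21, 95% interval -0.49 to 0.56) and 0.05 (SE 0.22, 95% interval -0.50 to 0.60).

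Atf3, a stress-induced partner of Jun proteins that often represses, had 153, 37.6 and 141 CPM in Pax7WT replicates 1 to 3 and 71.4, 105 and 83.0 CPM in Pax7KR replicates 1 to 3. Its highest library exceeded its lowest 4.08-fold, more than for the other 6 members above 1 CPM, whose ratios ran from 1.58 for Jun to 2.15 for Fosb. The log2 fold change was -0.36 (SE 0.60, 95% interval -1.98 to 1.27, edgeR adjusted p = 0.998). The biological coefficient of variation fitted by edgeR was 49.7% for Atf3 against 8.50% for the trend of genes at its level. For Fos it was 23.4% against 8.87%, for Fosb 28.4% against 8.80% and for Jun 14.3% against 8.84%.

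Genes on the opposite strand overlap Fosl1, Jun, Junb, Jund and Atf3. The library kit keeps strand, but the strand setting of the quantification was not given in the sources used here, so reads of these partners cannot be separated with certainty. Transcripts were also compared in their own direction only, so the genes on the opposite strand are not covered. In that search none of the main transcripts except that of Fosb shared a run of 31 bases with another gene. For Fosb 0.0533% of such runs were shared.

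Within Pax7WT, the members other than Fosl1 varied together across libraries, all lowest in replicate 2. Within Pax7KR, Fos, Fosl2, Jun, Junb, Jund and Atf3 were highest in replicate 2, whereas Fosb and Fosl1 were lowest there. Pax7WT replicate 2 was the lowest library for 6 of the 8 members (Fos, Fosb, Jun, Junb, Jund and Atf3), whereas it was the lowest for 18.5% of all genes. Relative to the median of the other 5 libraries, it held 0.624 of the Fos CPM, 0.542 of Fosb, 0.674 of Jun, 0.625 of Junb, 0.665 of Jund and 0.358 of Atf3. Fosl2 stood at 0.771, and Fosl1, on 6 reads, at 1.52. Of 9512 genes with a mean of 10 CPM or more, 82 (0.862%) were 1.5-fold or more below the median of the others in this library, and 5 of the 8 members were. Pax7WT replicate 1 was in turn the highest library for 6 members, all but Fosl1 and Fosl2, which were highest in Pax7WT replicate 3.

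**Figure D2:**
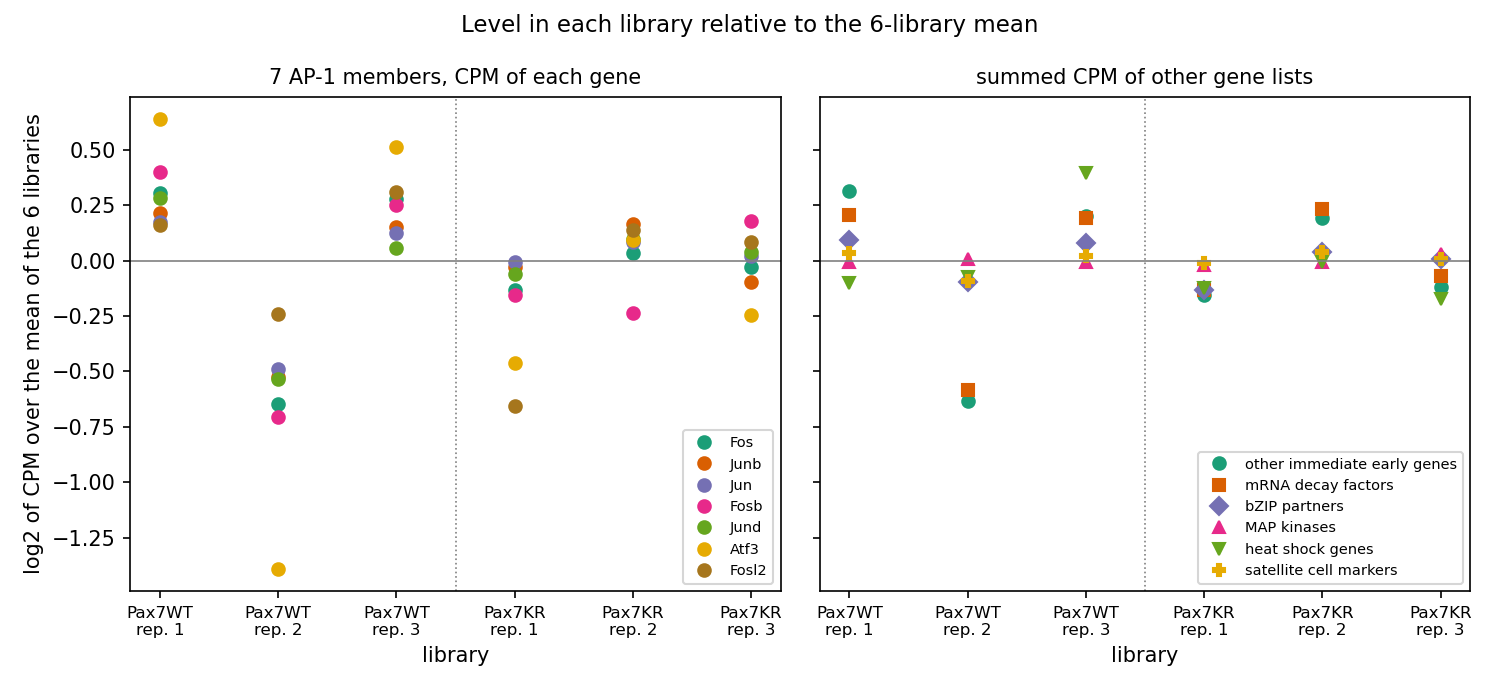
Level in each library as log2 of CPM over the mean of the 6 libraries, for the 7 members above 1 CPM (left) and for the summed CPM of 6 other gene lists (right). Members, other immediate early genes and mRNA decay factors are low in Pax7WT replicate 2, whereas MAP kinases and satellite cell markers stay close to 0 in all 6 libraries.

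This library was examined on its own after its values were seen. Since 6 of the 8 members were lowest in it, leaving it out raised their Pax7WT mean by construction. The shares of all genes given beside the members here and in the next paragraph rest on genes not picked in this way. They are therefore not a like comparison, and no conclusion is drawn from them. Without Pax7WT replicate 2, all 8 members had a lower estimate in Pax7KR (50.1% of all genes did), 3 of them with an unadjusted p under 0.05 (3.25% of all genes were lower with such a p), and 0 members were called by edgeR among 4 genes called in all (0.0236%). The log2 fold change of Fos was then -0.33 (SE 0.07, 95% interval -0.48 to -0.19, edgeR adjusted p = 0.367). For Atf3 it was -0.76 (SE 0.17, 95% interval -1.20 to -0.33, edgeR adjusted p = 0.690), and for Fosb -0.39 (SE 0.13, edgeR adjusted p = 0.783).

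The Jun family had smaller estimates without this library, -0.12 for Jun (SE 0.06), -0.16 for Junb (SE 0.08) and -0.15 for Jund (SE 0.08), each with a 95% interval that included 0. All 3 Pax7KR values lay below both remaining Pax7WT values for Fos, Fosb, Fosl2, Jun and Atf3, a pattern that 11.5% of all genes showed. None of these differences passed adjustment over all genes, with adjusted p from 0.367 for Fos to 0.974 for Fosl1 (edgeR). The estimates of Jun, Junb and Jund thus turned direction without this library, and those of Fos, Fosb and Atf3 grew in size. Leaving out Pax7WT replicate 1 or 3 moved them the other way. Fos was at 0.07 without Pax7WT replicate 1 and at 0.05 without Pax7WT replicate 3. Without Pax7WT replicate 1, Fosb was at 0.09 and Atf3 at -0.05. Pax7KR libraries moved them either way. Without Pax7KR replicate 2, Fos was at -0.12 and Atf3 at -0.52, but Fosb at -0.04. Without Pax7KR replicate 3, Fosb was at -0.25.

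**Figure D3:**
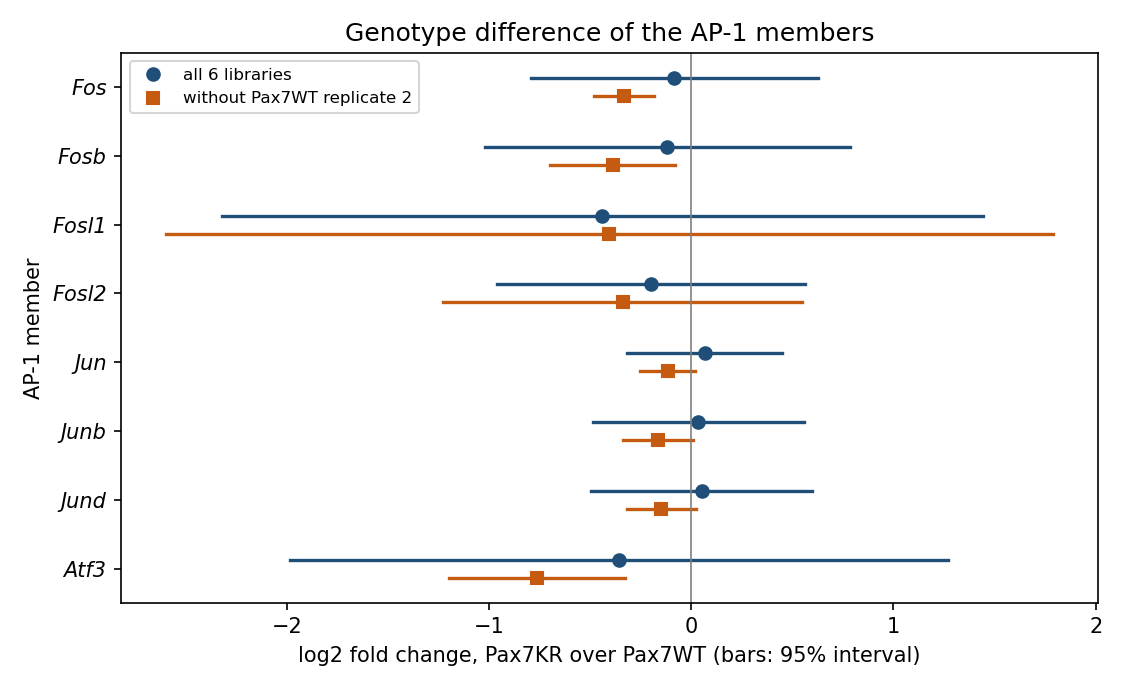
Log2 fold change of Pax7KR over Pax7WT for each member with its 95% interval from edgeR, for all 6 libraries and without Pax7WT replicate 2. With all 6 libraries every interval includes 0, and without that library the intervals of Fos, Fosb and Atf3 lie below 0 before any adjustment. That library was picked after its low values were seen, and fits without another library are not drawn.

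The genes whose profile over the 6 libraries was most like the mean profile of the 7 members above 1 CPM were sought among 9505 other genes of 10 CPM or more, by the root mean square difference of centred log2(CPM + 1) values. The mean profile itself ran from 0.35 in Pax7WT replicate 1 and -0.60 in Pax7WT replicate 2 to 0.28 in Pax7WT replicate 3, and stood at -0.17, 0.10 and 0.04 in Pax7KR replicates 1 to 3. The 5 nearest genes were Ppp1r15a (difference 0.0692), Egr1 (0.0721), Gadd45b (0.0893), Zfp36l1 (0.0915) and Tnfaip3 (0.092), where a flat profile had 0.317. Ppp1r15a is a stress-induced phosphatase subunit, Egr1 a zinc finger immediate early factor, Gadd45b a stress sensor, Zfp36l1 an mRNA decay factor and Tnfaip3 an inhibitor of NF-κB signalling. Egr1 had 10803, 5425 and 9617 CPM in Pax7WT replicates 1 to 3 and 7545, 9617 and 7917 CPM in Pax7KR replicates 1 to 3. Among the members, Fos lay closest to the mean profile (0.037), and Fosl2 (0.257) and Atf3 (0.357) lay farthest. This likeness rests on 6 libraries, of which Pax7WT replicate 2 lay farthest from the mean.

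Other members of the pathway were read from lists of genes. Of 14 other leucine zipper partners tested, among them Creb1 and Atf2, which bind cAMP response elements, 5 stood higher and 9 lower, 0 had an unadjusted p under 0.05, and the median log2 fold change was -0.05 (-0.09 to 0.01 on leaving out single libraries, other sign without Pax7KR replicate 1). Of 19 kinases of the MAP kinase pathways that switch on Fos and Jun, 2 were higher with an unadjusted p under 0.05, the p38 kinase Mapk11 (log2 fold change 1.43, SE 0.59, at 1.01 CPM or less in every library) and the upstream kinase Map3k5 (0.26, SE 0.11), and 0 were called by edgeR. Their median was -0.01, turning to 0.02 with a transcript length offset and to 0.0039 and 0.0033 without Pax7KR replicates 2 and 3, and in Pax7WT replicate 2 they stood at a median of 1.01 of the other libraries. Of 8 dual specificity phosphatases, which switch those kinases off, 3 stood higher and 5 lower, and Dusp5, itself an early response gene, had the smallest p (log2 fold change -0.70, SE 0.33). Their median was -0.10 and turned to 0.02 without Pax7KR replicate 3. In that fit edgeR called 32 genes in all, among them Dusp16 (log2 fold change 0.54, SE 0.08, edgeR adjusted p = 0.0488).

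SRF and its cofactors, which bind the Fos promoter region, numbered 6 tested genes with 0 under an unadjusted p of 0.05 and a median log2 fold change of -0.04, which was 0.01 without Pax7WT replicate 2. The list of mRNA decay factors holds 6 regulators of mRNA decay, among them Zfp36l2, Elavl1 and Btg2. Of these, Btg2 is also counted among the other immediate early genes. The median of the 6 was -0.01. Single libraries moved it both ways, to -0.16 without Pax7WT replicate 2 and to 0.12 and 0.11 without Pax7WT replicates 1 and 3. Without Pax7KR replicates 1, 2 and 3 it was 0.07, -0.09 and 0.04, and with a replicate block 0.03. Of these factors, 5 were lowest in Pax7WT replicate 2, at a median of 0.685 of the other libraries. Among 26 other immediate early genes tested (Egr4 had 0 reads), 10 stood higher and 16 lower, with 2 lower at an unadjusted p under 0.05, Klf10 (log2 fold change -0.30, SE 0.10) and Myc (-0.20, SE 0.07). The median of the 26 was -0.09, with -0.27 without Pax7WT replicate 2, -0.17 without Pax7KR replicate 2, 0.03 without Pax7WT replicate 1 and 0.01 without Pax7KR replicate 3. Their summed level was 18546, 9623 and 17158 CPM in Pax7WT replicates 1 to 3 and 13382, 17019 and 13744 CPM in Pax7KR replicates 1 to 3, and 16 of them were lowest in Pax7WT replicate 2. Without that library 10 were lower with an unadjusted p under 0.05, where 3.25% of all genes were. Egr3 alone of the 26 was called, 1 of 4 genes called in all (log2 fold change -1.13, SE 0.15, edgeR adjusted p = 0.0624). Since 16 of the 26 were lowest in the library left out, their lower Pax7KR estimates arise in part by construction. The share of all genes is therefore not a like comparison, and no conclusion is drawn from it.

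Of 22 listed genes that AP-1 is known to regulate, 17 were tested, with Mmp10 and Mmp13, matrix proteases, at 0 reads. The tested genes stood higher in 7 cases and lower in 10, and the cell cycle gene Ccnd1 had an unadjusted p under 0.05 (log2 fold change -0.28, SE 0.12). Their median was -0.05, with 0.02 without Pax7WT replicate 1 and -0.15 without Pax7WT replicate 2. Their median ratio in Pax7WT replicate 2 was 0.822 of the other libraries, against 0.645 for the 8 members. The 8 heat shock genes, another mark of cell stress, all had a lower estimate in Pax7KR, as 51.0% of all genes did, with a median of -0.20 (-0.05 without Pax7WT replicate 3), and 1 of them, Hspb1, had an unadjusted p under 0.05. Their level in Pax7WT replicate 2 was at a median of 1.00 of the other libraries, although 3 of the 8 were lowest there (18.5% of all genes were), with Hsp90aa1 at 0.864 and the lowest of the 3 at 0.648. Their summed CPM, most of it from the Hspa1a and Hspa1b pair, was highest in Pax7WT replicate 3.

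The members differ in structure and in how much of their RNA was assigned to transcripts without a full coding sequence. Jun, Junb and Jund are made from 1 exon, whereas the main transcripts of Fos, Fosb, Fosl1, Fosl2 and Atf3 have 4. Fosb (chr7:19302696-19310051, minus strand, GRCm38) had the largest such share of reads, 27.4%, 34.1% and 30.0% in Pax7WT replicates 1 to 3 and 30.4%, 28.4% and 29.8% in Pax7KR replicates 1 to 3. These reads were on Fosb-204, an annotated retained intron transcript of 1 exon. Retained intron transcripts of all genes held 5.01% to 5.56% of the reads of a library. For Fos (chr12:85473890-85477273, plus strand) the share was 4.76%, 8.34% and 5.50% in Pax7WT and 6.31%, 5.41% and 5.73% in Pax7KR libraries. For Atf3 it was 10.5%, 5.24% and 10.5% and then 7.98%, 7.89% and 6.32%. The share of reads was thus highest in Pax7WT replicate 2 for Fos and Fosb and lowest there for Atf3. As a share of TPM the order of Atf3 and Fosb turned in the Pax7WT means but not in every library. Atf3 was at 22.3% to 37.8% with a Pax7WT mean of 32.4%, and Fosb at 27.2% to 34.3% with a Pax7WT mean of 30.6%. Both had a Pax7KR mean of 29.1%, and Fosb stood above Atf3 in Pax7WT replicate 2 and in Pax7KR replicate 3. Fos was at 13.3% to 21.5%. No share differed between genotypes beyond the spread in the 5 members tested (exact permutation test of the share of reads, two-sided, p from 0.6 to 0.9, adjusted p = 0.9). How salmon divides reads between transcripts that share exons is an estimate.

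Fosb is spliced in different ways, and the intron that decides between its long and truncated proteins is shown because the share of its removal could be read from the transcripts. The intron lies within the coding sequence of Fosb-201 at chr7:19305007-19305146 (140 bases, GRCm38, minus strand). In the first run capitals mark the intron, flanked by 15 bases on each side, and in the second the flanks are joined and capitals mark the stop codon that joining creates.
Fosb with the intron kept: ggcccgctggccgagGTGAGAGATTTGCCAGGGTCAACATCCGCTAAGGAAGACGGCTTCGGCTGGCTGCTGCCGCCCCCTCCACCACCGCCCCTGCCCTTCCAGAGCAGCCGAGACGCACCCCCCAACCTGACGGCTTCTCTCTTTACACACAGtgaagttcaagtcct
Fosb with the intron removed: ggcccgctggccgagTGAagttcaagtcct

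Fosb-201, with the intron kept, encodes 338 codons, and Fosb-206, with it removed, encodes 237, the form known as ΔFosB that lacks the end of the long protein and lasts longer in cells. Fosb-207 also lacks the intron. Together Fosb-206 and Fosb-207 made up 8.32%, 6.07% and 7.52% of the TPM of coding Fosb transcripts in Pax7WT replicates 1 to 3 and 8.64%, 14.5% and 9.43% in Pax7KR replicates 1 to 3. The groups did not overlap, although Pax7WT replicate 1 and Pax7KR replicate 1 lay close together. The means were 7.31% ± 1.14 and 10.8% ± 3.16 (SD, n = 3), with an exact two-sided permutation p of 0.1, the smallest that 3 against 3 can give. As a share of reads the values were 4.66%, 3.19% and 3.68% in Pax7WT and 4.65%, 5.88% and 4.93% in Pax7KR libraries, and these groups overlapped (exact permutation p = 0.2). Without Pax7KR replicate 2 the difference in TPM share fell from 3.54 to 1.73 percentage points. Fosb-206 alone was at 1.19%, 0.924% and 1.26% of coding reads in Pax7WT and 1.33%, 3.15% and 1.51% in Pax7KR libraries. These groups did not overlap (exact permutation p = 0.1), and the highest value was again that of Pax7KR replicate 2. The comparisons of these transcripts were chosen after the transcript values were seen.

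**Figure D4:**
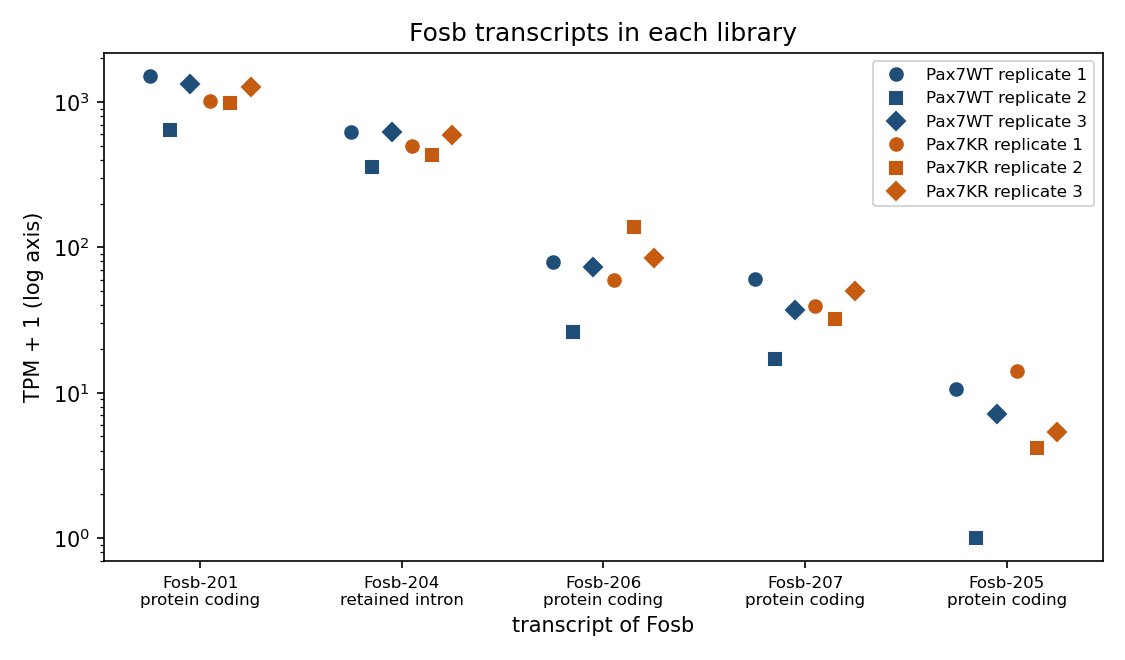
TPM + 1 (log axis) of 5 Fosb transcripts in each library, with their annotated type. Fosb-201 is the most abundant in every library, Fosb-206 is highest in Pax7KR replicate 2, and Pax7WT replicate 2 is lowest for all 5.

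The 3′ UTRs were searched for AU-rich elements, the letters through which many immediate early mRNAs are removed, because decay bears on how fast these transcripts come and go. The pentamer ATTTA occurred 4 times in Fos, 4 in Jun, 3 in Atf3, 2 in Junb, 8 in the long 3′ UTR of Fosl2 and once each in Fosb, Fosl1 and Jund. Per kilobase this was 4.91 for Fos, 4.12 for Junb, 3.24 for Jun, 2.53 for Atf3, 1.88 for Jund, 1.72 for Fosl2, 1.57 for Fosl1 and 0.466 for Fosb, against a median of 1.22 over 13825 tested genes. Of the members, only Fosb lay below that median. The nonamer TTATTTATT was held by Fos and Fosl2, 2 of 8 members, and by 7.44% of the 13825 genes. Both are shown with capitals on the nonamer and 10 bases on each side.
Fos: tgttttcaatTTATTTATTaagatggatt
Fosl2: atttattttaTTATTTATTttaaatgttt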

How the data were processed

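RNA-sequencing of 3 Pax7WT and 3 Pax7KR libraries was analysed, grouped by their labels, with no library left out. The authors quantified paired reads with salmon (version 1.3.0) against GENCODE transcripts of GRCm38 with genomic decoys and deposited estimated counts per transcript, which are not normalized. The authors also deposited TPM, which scales for effective transcript length and depth within a library, and effective lengths, used here only as an offset. A deposited table of the authors' comparison (log2 fold changes, p-values, adjusted p-values and a mean normalized signal) was not used.

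Estimated counts were summed per gene and rounded. Of 140992 transcripts, 139791 were matched by identifier to an earlier GENCODE release of the same build, and the others, with 0.592% to 0.634% of the reads of a library, were left out. The test was run on genes reaching 5 reads in at least 2 libraries, with edgeR (version 4.0.16, TMM, robust quasi-likelihood, R version 4.3.3) on genotype alone, with Benjamini-Hochberg adjustment over 17152 genes at 0.1. DESeq2 (version 1.42.0) and limma (version 3.58.1) were alternatives. Standard errors came from the fold change and F statistic. Pairs of libraries differed beyond counting noise (chi-square per gene of 10.2 to 23.3), so none was counted as a duplicate. The precision set by depth is that of 17822367 to 27908054 reads per library. Shares were compared with exact permutation tests in scipy (version 1.17.1), and level ratios used a pseudocount of 0.01 TPM. The edgeR step was tested on simulated data with 3 against 3 libraries, where 194 of the genes tested had been given a log2 change of 1. It called 69.1% of them and 21 unchanged genes. This rate is over genes of all levels and spreads, and is not that of the members.

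The members and lists were chosen with earlier results of these data known. Genes named besides the 8 members are up to 4 per list with the smallest unadjusted p, the 5 genes nearest to the members' mean profile, and Pax7 as the edited gene. Egr4, Mmp10, Mmp13 and Cd3e (0 reads), Dpt and Hspa1a (the bulk of a list's sum) were named after the values were seen. Promoter sequences are from RefSeq (GRCm38.p6).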

Additional observations from a re-analysis of the deposited data

How the results depend on the processing

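The count of 0 AP-1 members called held under all 17 alternatives, while the count over all genes moved from 0 to 30 with DESeq2, 45 with DESeq2 and a transcript length offset, 157 without a filter on low counts, and 1 to 32 on leaving out single libraries (1 without Pax7WT replicate 3, 32 without Pax7KR replicate 3). Genes called over the pathway lists went from 0 to 1 on leaving out Pax7WT replicate 2 (Egr3) or Pax7KR replicate 3 (Dusp16) and ranged from 0 to 1. After centring within each genotype, same-numbered libraries correlated at -0.0, 0.10 and 0.03 across 9512 genes, and different-numbered libraries at -0.11 to 0.09. These values cannot decide whether a replicate number marks a pair, because centring on the genotype mean ties the correlations to each other. The fit with the replicate number as a block called 13 genes and 0 members.

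No tool, scaling or filter turned the direction of a member. Leaving out a library did in 9 cases. Without Pax7WT replicate 1, Fos was at 0.069 and Fosb at 0.089 on the log2 scale. Without Pax7WT replicate 3, Fos was at 0.052 and Fosl1 at 0.137. Without Pax7KR replicate 1, Fosl2 was at 0.014, and without Pax7KR replicate 2, Junb was at -0.045. Without Pax7WT replicate 2, Jun was at -0.117, Junb at -0.164 and Jund at -0.148. The ranges over the 6 fits were -0.33 to 0.07 for Fos, -0.39 to 0.09 for Fosb, -1.02 to 0.14 for Fosl1, -0.34 to 0.01 for Fosl2, -0.12 to 0.18 for Jun, -0.16 to 0.17 for Junb, -0.15 to 0.24 for Jund and -0.76 to -0.05 for Atf3. The cause was not tested. Fosl1 had no value with at least 10 reads in every library, and its 3 to 11 reads per library limit what can be seen for it. Of 80 recomputed list medians, 14 took another sign, in 7 of the 8 pathway lists (all but heat shock genes). The other 177 recomputed values kept their direction and side of the threshold, or stayed within 1.5 times the count.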
